A study of Mus musculus with 26 samples.

Results

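Fc gamma receptors are the cell-surface proteins through which leukocytes bind the constant part of immunoglobulin G (IgG). The 6 genes described here were taken by symbol: the activating receptors Fcgr1, Fcgr3 and Fcgr4, the inhibitory receptor Fcgr2b, the signalling chain Fcer1g and the neonatal Fc receptor Fcgrt. They were 6 of 16322 genes measured in 12 tumour libraries and 6 of 14131 genes measured in 14 libraries of sorted cells. All libraries came from KPC mice, which carry engineered alleles and develop pancreatic ductal adenocarcinoma. The tumour set held 7 libraries of whole tumours given vehicle and 5 given GS9820, an inhibitor of the p110δ subunit of phosphoinositide 3-kinase (PI3K), over 14 days; no day is given for vehicle. The sorted set held spleen polymorphonuclear cells (PMN, also marked "low") and monocytes (also marked "high"), with 3 vehicle and 4 treated libraries of each. The labels do not say whether libraries of 1 group came from separate animals, so p-values measure the spread between libraries, which may be technical.

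An activating Fc gamma receptor binds IgG outside the cell and passes the signal through the Fcer1g chain, whose phosphorylated motif recruits the kinase Syk and then PI3K. Fcgr2b carries an inhibitory motif instead and recruits the phosphatase SHIP1 (Inpp5d), which removes the lipid that PI3K makes, so myeloid cells that carry both kinds respond to immune complexes according to their balance. Fcgrt encodes the heavy chain of FcRn, which pairs with beta-2 microglobulin inside cells and returns IgG and albumin to the circulation.

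Values are deposited log2 values, which the authors named log2 RPKM; the libraries of a set have nearly 1 distribution, so depth per library is unknown and no counting interval can be given. Differences are in log2 units with the standard error (SE) of limma, and a gene is called at an adjusted p under 0.05 (Benjamini-Hochberg over all genes tested). All 6 genes passed the filter on low values in both sets. The mean deposited log2 value of 10 neutrophil markers was 12.45 to 12.71 in PMN and 8.76 to 11.19 in monocytes. That of 9 monocyte markers was 6.50 to 7.17 in PMN and 8.27 to 9.93 in monocytes. The labels and both list means thus go the same way. Each list also had a high mean in the other cell type, and whether this was RNA of other cells was not tested. The list of 8 B cell markers averaged 4.12 to 4.84 in PMN and 2.00 to 3.38 in monocytes, and the list of 7 natural killer cell markers averaged 1.26 to 6.26 in PMN and 0.76 to 3.39 in monocytes. B cells and natural killer cells also express Fc gamma receptor genes; their part in the results was not tested. In tumours the list of 11 measured macrophage markers averaged 6.07 to 8.44 in vehicle and 5.68 to 7.58 in treated libraries. In such bulk samples, fewer cells of a type and less RNA per cell cannot be told apart.

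The genes lie in 3 places of the mouse genome (GRCm38, GENCODE M21). Fcgr2b (chromosome 1, 170958617 to 170976547, minus strand), Fcgr4 (171018920 to 171029761, plus strand), Fcgr3 (171051174 to 171064935, minus strand) and Fcer1g (171229572 to 171234365, minus strand) form a cluster of 275.7 kb. Fcgr1 lies on chromosome 3 (96282909 to 96293969, minus strand) and Fcgrt on chromosome 7 (45092990 to 45103851, minus strand). Fcgr1 and Fcgr4 are the members that differed most between monocytes and PMN, in opposite directions, so the 250 bases before their RefSeq start sites (GRCm38.p6) are shown, 5′ to 3′ in the direction of transcription, at chr3:96293970-96294219 (minus strand) and chr1:171018676-171018925 (plus strand). Capitals mark matches on either strand to GAGGAA (read as TTCCTC on the other strand), a core bound by the myeloid factor PU.1, and to TTCNNNGAA, the form of an interferon-gamma-activated site.
Fcgr1: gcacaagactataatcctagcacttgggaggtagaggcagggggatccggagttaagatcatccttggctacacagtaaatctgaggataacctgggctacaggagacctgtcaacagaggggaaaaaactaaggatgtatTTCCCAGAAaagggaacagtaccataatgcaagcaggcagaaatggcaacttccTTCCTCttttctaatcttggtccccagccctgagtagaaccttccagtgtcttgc
Fcgr4: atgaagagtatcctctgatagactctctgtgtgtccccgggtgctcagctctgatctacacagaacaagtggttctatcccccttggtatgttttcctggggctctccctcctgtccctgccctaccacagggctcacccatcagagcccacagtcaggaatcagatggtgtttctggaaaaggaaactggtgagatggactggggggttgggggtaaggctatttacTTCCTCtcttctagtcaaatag
GAGGAA was matched at bases 55 to 50 before the start of Fcgr1 and at bases 22 to 17 before the start of Fcgr4. It was also matched before Fcgr3, at bases 15 to 10 of one RefSeq start and 6 to 1 of another, and in none of the windows of Fcgr2b, Fcer1g and Fcgrt; 23.3% of 32851 mouse promoter windows of this length hold it. TTCNNNGAA was matched only before Fcgr1 among the 6 members, at bases 109 to 101 with the letters TTCCCAGAA, and is held by 7.02% of the windows. The 2 matches of Fcgr1 do not overlap. A match is a description of these letters and shows no binding.

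Fcgr2b and Fcgr3 are near copies over part of their coding sequence. This can bear on the values of this pair, because a read wholly within the shared stretch cannot be given to 1 gene by its letters. The tumour reads were pairs, and a mate outside the stretch was not considered here. The longest run common to transcripts Fcgr2b-201 (bases 402 to 530) and Fcgr3-201 (bases 313 to 441) is 129 bases, all coding, across exons 3 and 4 of both, within chr1:170966674-170968081 and chr1:171054167-171057792.
Fcgr2b and Fcgr3: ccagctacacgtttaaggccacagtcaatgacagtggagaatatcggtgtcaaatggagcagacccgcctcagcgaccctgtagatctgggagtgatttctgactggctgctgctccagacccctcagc
Of all 100-base windows, the read length stated for the tumours, 44 were shared, which is 2.7% of the windows of Fcgr3 and 1.14% of those of Fcgr2b. With 50 bases the shares were 10.2% and 4.48%. No 50-base or 100-base window was shared with another member (0 windows). Fcgr2b also overlaps the antisense gene Gm38204 by 3175 bases and Fcgrt overlaps Gm45669 by 5331 bases; the tumour kit keeps the strand, but no strand setting is stated for the kits of the sorted cells.

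Monocytes and PMN held RNA of the same activating receptors at different levels. Monocytes held more Fcgr1, the high-affinity receptor for IgG2a and IgG2c, and less Fcgr3 and Fcgr4 than PMN, whereas the inhibitory Fcgr2b did not pass the test. In vehicle mice 3 of the 6 genes were called (Fcgr1 higher, Fcgr3 and Fcgr4 lower), against 60.1% of all 13968 genes tested. In treated mice 4 of the 6 were called, the same 3 in the same directions and Fcgrt higher, against 69.6% of all genes. By direction, 1 of 6 was higher and 2 lower in vehicle monocytes, against 32.8% and 27.2% of all genes, and 2 were higher and 2 lower in treated monocytes, against 37.6% and 32.1%. The genes called were those whose ranges did not overlap, 3 of 6 in vehicle mice (59.5% of all genes) and 4 of 6 in treated mice (69.5%). The number of members called is near the share among all genes, and the sizes and directions are what the following values describe.

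Fcgr1 stood at 3.96, 4.25 and 2.71 in vehicle PMN and at 5.31, 5.42 and 7.15 in vehicle monocytes (deposited log2 values). In treated mice it stood at 3.52, 3.56, 3.23 and 2.84 in PMN and at 5.82, 7.05, 6.35 and 5.68 in monocytes. Every monocyte library lay above every PMN library. The limma difference was 2.32 ± 0.52 (SE) in vehicle mice, a 4.98-fold higher level (n = 3 and 3; adjusted p = 0.00193), and 2.94 ± 0.45 in treated mice (n = 4 and 4; adjusted p = 8.07e-05). The vehicle monocyte libraries with less Fcgr1 had neutrophil marker means of 11.19 and 10.92. The library at 7.15 had 8.76, and any part of neutrophils in these values was not tested.

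Fcgr3, the low-affinity activating receptor for IgG immune complexes, had the least spread of the activating receptors. It was 9.99, 10.40 and 10.05 in vehicle PMN and 10.14, 10.20, 10.11 and 10.20 in treated PMN. It was 8.83, 8.91 and 9.20 in vehicle monocytes and 9.01, 9.21, 9.06 and 9.22 in treated monocytes. All PMN libraries were therefore above all monocyte libraries, although the gene was abundant in both: its mean was above that of 98.8% of genes in vehicle PMN and of 96.7% in vehicle monocytes. Monocytes were lower by 1.17 ± 0.13 (SE) in vehicle mice, or 0.446 times the PMN level (adjusted p = 1.42e-05), and the difference in treated mice was -1.04 ± 0.12 (adjusted p = 6.1e-06; limma, n = 4 and 4).

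Fcgr4, the activating receptor for IgG2a and IgG2b that is the mouse counterpart of human CD16A, had the largest difference of the 6 genes. It was 9.49, 7.59 and 7.68 in vehicle PMN and 7.36, 7.81, 7.58 and 6.90 in treated PMN. In monocytes it was 5.39, 4.47 and 3.61 with vehicle and 5.06, 3.52, 4.39 and 3.18 with treatment. The 2 cell types did not overlap, and the mean of vehicle PMN lay above 94.2% of genes while that of vehicle monocytes lay above 49.0%. The difference in vehicle mice was -3.76 ± 0.59 (SE), 0.0736 times the PMN level (limma, n = 3 and 3; adjusted p = 0.000151), and in treated mice it was -3.37 ± 0.51 (n = 4 and 4; adjusted p = 7.56e-05). Over the 14 sorted libraries, after the mean of each group was subtracted, Fcgr4 followed the neutrophil marker mean (Pearson r = 0.61, Spearman rho = 0.65; 0.73 without the 2 libraries farthest from the median) and went against Fcgr3 (r = -0.77, rho = -0.79; -0.75 without 2). These correlations are descriptions over libraries that share their preparation.

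Fcer1g, the chain that carries the signal of the activating receptors, was among the most abundant transcripts of both cell types and showed little difference between them. Its values were 10.52, 10.53 and 10.33 in vehicle PMN and 10.14, 9.65 and 10.34 in vehicle monocytes, which overlap. In treated mice they were 10.21, 10.54, 10.54 and 10.18 in PMN and 9.87, 10.11, 10.13 and 10.22 in monocytes, which also overlap. The differences of -0.41 ± 0.18 (SE) in vehicle mice (limma, adjusted p = 0.0618) and -0.28 ± 0.16 in treated mice (adjusted p = 0.119) did not pass the threshold. Without monocyte vehicle library 3 the first was -0.56 and passed (adjusted p = 0.0171).

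Fcgr2b, the inhibitory receptor, was as high as the activating Fcgr3 in some libraries and varied most among vehicle PMN. Vehicle PMN held 7.83, 10.56 and 6.87, a range that includes every other sorted library. Vehicle monocytes held 8.35, 9.11 and 8.89, treated PMN 8.69, 8.50, 8.73 and 9.43, and treated monocytes 8.86, 9.74, 9.74 and 10.24. Monocytes minus PMN was 0.36 ± 0.70 (SE) in vehicle mice (limma, adjusted p = 0.67) and 0.81 ± 0.60 in treated mice (adjusted p = 0.248). The first value rests on single vehicle PMN libraries: without library 2 it was 1.43 (adjusted p = 0.0105), without library 3 it was -0.41 (adjusted p = 0.602) and without library 1 it was 0.06. Library 2 also had the highest mean of 7 measured red cell markers, 8.78, against 6.63 and 6.14 in the other vehicle PMN libraries, and the lowest natural killer cell marker mean, 1.26; their part in its Fcgr2b value was not tested.

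Fcgrt, the IgG and albumin recycling receptor, was at intermediate levels. It was 6.14, 5.95 and 3.79 in vehicle PMN and 5.62, 5.69 and 6.74 in vehicle monocytes, which overlap (difference 0.72 ± 0.58, limma adjusted p = 0.297; -0.03 without PMN library 3). It was 3.93, 4.42, 4.36 and 5.20 in treated PMN and 5.64, 5.46, 6.26 and 6.88 in treated monocytes, which do not overlap (1.58 ± 0.50, adjusted p = 0.0132). The vehicle PMN libraries with the higher Fcgrt had macrophage marker means of 4.63 and 3.98 and the one with the lower had 2.69; C1qa, which marks tissue macrophages, ran from 1.61 to 7.15 in them. Their part in the Fcgrt values was not tested.

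**Figure D1:**
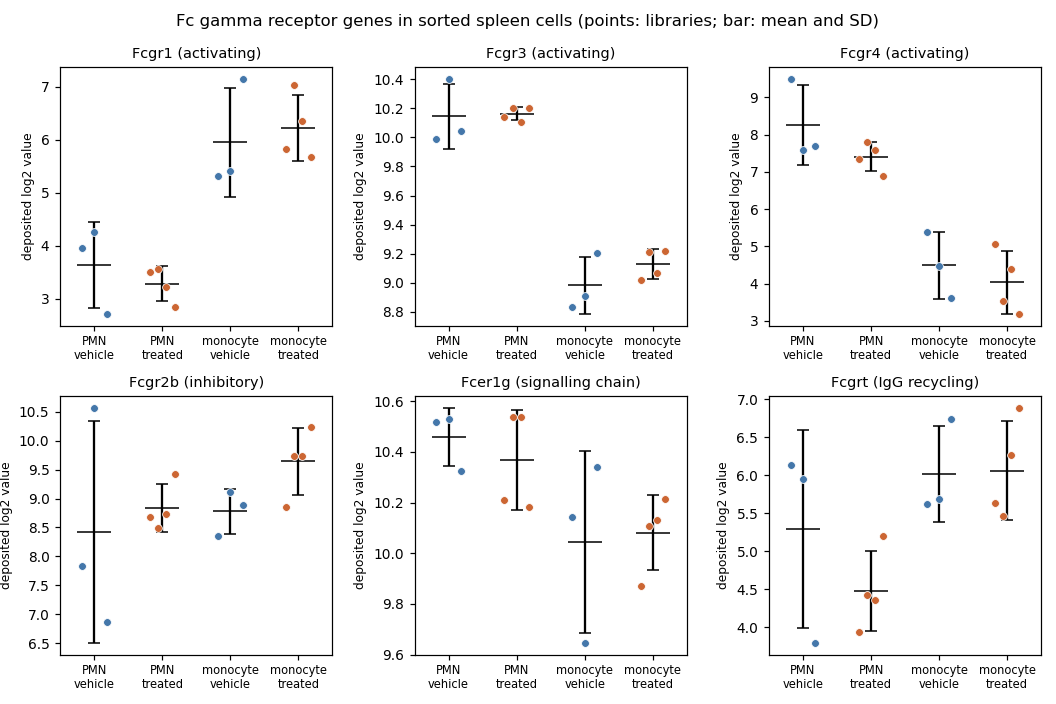
Deposited log2 value of the 6 genes (vertical axis of each panel, own scale) in the 14 sorted spleen libraries by cell type and treatment; points are libraries, the bar is the mean and its whiskers 1 SD. Fcgr1 points of monocytes lie above those of PMN, Fcgr3 and Fcgr4 points of monocytes lie below, and the Fcgr2b points of vehicle PMN span 6.87 to 10.56.

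The order of the 4 sorted groups puts these differences together. For Fcgr1 the mean went from treated monocytes (6.23) and vehicle monocytes (5.96), which overlap, to vehicle PMN (3.64) and treated PMN (3.29), which overlap. For Fcgr3 the order was treated PMN (10.16), vehicle PMN (10.15), treated monocytes (9.13) and vehicle monocytes (8.98), with a gap only between the cell types. Fcgr4 followed as vehicle PMN (8.25), treated PMN (7.41), vehicle monocytes (4.49) and treated monocytes (4.04), again with a gap only between the cell types. For Fcgr2b, Fcer1g and Fcgrt every neighbouring pair of groups in the order overlapped.

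The p110δ subunit acts downstream of these receptors. The comparison of treated with vehicle cells asks whether blocking it goes with different RNA levels of the receptors in spleen myeloid cells. No member was called in either cell type, and none of their ranges was separate between treated and vehicle (0 of 6 each). Among all genes limma called 0% in PMN and 0% in monocytes; 3.08% and 2.4% had an unadjusted p under 0.05, and the ranges of 3.77% and 3.37% did not overlap. With 4 treated and 3 vehicle libraries the smallest exact permutation p is 0.0571, so that test cannot pass 0.05 here. Permutation p-values are given for the 6 members in 3 comparisons without adjustment.

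In PMN the activating Fcgr4 was 0.84 ± 0.55 (SE) lower in the treated group by limma (adjusted p = 1), and the exact two-sided permutation p was 0.229. Without vehicle library 1, which held 9.49, the difference was -0.22. Fcgr1 differed by -0.35 ± 0.48 (-0.82 without vehicle library 3, -0.05 without vehicle library 2) and Fcgr3 by 0.02 ± 0.12, the smallest SE of the 6 genes. Fcer1g differed by -0.09 ± 0.17. Fcgr2b differed by 0.42 ± 0.65, by 1.49 without vehicle library 2 and by -0.36 without vehicle library 3. Fcgrt differed by -0.82 ± 0.54 (exact permutation p = 0.286), by -1.57 without vehicle library 3 and by -0.39 without vehicle library 1. Red cell markers moved with the same comparison, with list means of 6.14 to 8.78 in vehicle and 3.89 to 5.81 in treated PMN, and macrophage markers had means of 2.69 to 4.63 and 2.98 to 3.55; their part was not tested.

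In monocytes the largest difference was that of the inhibitory Fcgr2b, 0.86 ± 0.65 (SE; limma adjusted p = 0.995), with an exact two-sided permutation p of 0.171. The 3 treated libraries at 9.74, 9.74 and 10.24 lay above all vehicle monocytes, and the fourth, at 8.86, lay among them. Fcgr4 differed by -0.45 ± 0.55, and by between -0.89 (without vehicle library 3) and -0.00039 (without vehicle library 1) when single libraries were left out. Fcgr1 differed by 0.27 ± 0.48 (0.86 without vehicle library 3, -0.06 without vehicle library 1) and Fcgr3 by 0.15 ± 0.12. Fcer1g differed by 0.04 ± 0.17 and Fcgrt by 0.04 ± 0.54. The difference between the treatment effects of monocytes and PMN, tested as an interaction, ran from 0.13 ± 0.18 for Fcgr3 to 0.86 ± 0.77 for Fcgrt, and none of the 6 passed (limma adjusted p = 1), as 0% of all genes did (1.93% at an unadjusted p under 0.05). Which library kit served which sorted library is not given, so kit and group cannot be told apart.

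**Figure D2:**
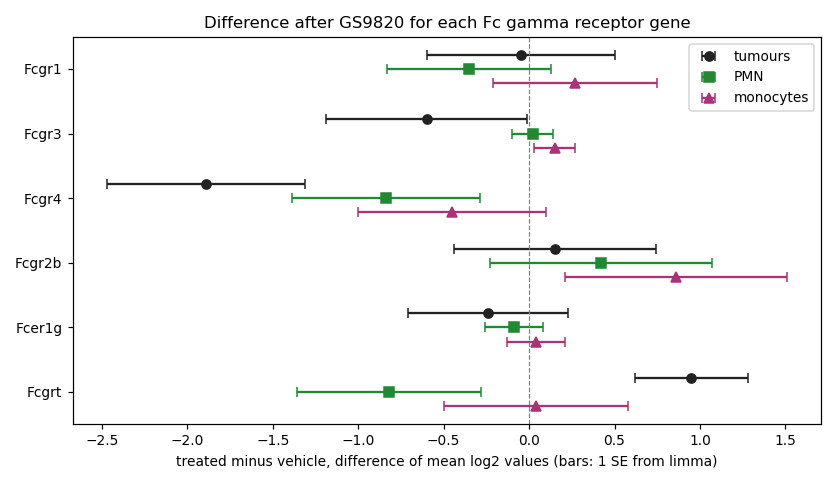
Treated minus vehicle difference of mean deposited log2 values (horizontal axis) for each gene in tumours, PMN and monocytes; points are limma estimates and bars 1 SE. Fcgr4 lies left of 0 in all 3 (-1.89, -0.84 and -0.45; the last is -0.00039 without monocyte vehicle library 1) and Fcgr2b right of it (0.15, 0.42 and 0.86; the first 2 turn to -0.11 without treated tumour 5 and -0.36 without PMN vehicle library 3), none of them past the threshold.

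In whole tumours the comparison asks how the receptor genes stood in RNA of all cells together after 14 days of treatment. Fcgr4 had the largest difference (-1.89) and Fcgrt the next (0.95), and neither passed after adjustment over all genes, while the other 4 differed by about 1 SE or less. Of the 6 genes 0 were called, against 2.2% of 16296 genes (0.878% higher and 1.33% lower). At an unadjusted p under 0.05 it was 2 of 6 (Fcgr4 and Fcgrt), against 24.4% of all genes. No member had separate ranges (0 of 6), against 2.81% of all genes.

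Fcgr4 ran from 2.87 to 5.49 with a median of 4.06 in the 7 vehicle tumours, and was 0.26, 2.26, 3.25, 2.54 and 3.61 in the 5 treated tumours. The 3 treated values of 2.54 and below lay under every vehicle tumour, and those at 3.25 and 3.61 lay within the vehicle range, above vehicle tumour 7 only. The limma difference was -1.89 ± 0.58 (SE), 0.271 times the vehicle level (unadjusted p = 0.00634, adjusted p = 0.0866), and the exact two-sided permutation test over 792 splits gave p = 0.0101, where the smallest possible is 0.00253. The mean was above that of 40.5% of genes in vehicle and 12.8% in treated tumours. Treated tumour 1, at 0.26, was also the lowest of all 12 tumours in Fcgr1, Fcgr3, Fcgr2b, Fcer1g and the macrophage marker mean (5.68).

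Fcgr3 ran from 6.52 to 9.16 with a median of 7.12 in vehicle tumours and was 4.60, 7.04, 7.76, 6.30 and 8.08 in treated tumours, with broad overlap. Its difference was -0.60 ± 0.59 (SE; limma adjusted p = 0.548), and -0.07 without treated tumour 1. Fcgr1 ran from 3.73 to 6.29 with a median of 5.10 in vehicle and was 3.08, 5.59, 5.10, 4.54 and 6.22 in treated tumours. The group means of Fcgr1 were 4.96 ± 0.94 (SD, n = 7) and 4.91 ± 1.19 (SD, n = 5), and the limma difference was -0.05 ± 0.55 (adjusted p = 0.966). The other 2 activating receptors thus had smaller differences than Fcgr4, and whether the members differ in this was not tested.

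Fcer1g ran from 4.68 to 6.75 with a median of 5.31 in vehicle tumours and was 3.63, 5.29, 6.04, 4.88 and 6.33 in treated tumours. The groups overlapped (difference -0.24 ± 0.47, limma adjusted p = 0.779). Treated tumour 1, at 3.63, lay under every vehicle tumour, and the other treated tumours lay within the vehicle range. Fcgr2b ran from 6.17 to 9.05 with a median of 7.41 and was 5.42, 8.05, 8.47, 6.86 and 8.51 after treatment. The 2 groups again overlapped (0.15 ± 0.59, adjusted p = 0.894).

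Fcgrt had the narrowest treated group. It was 7.41, 8.15, 7.66, 7.38 and 8.09 in treated tumours and ran from 5.97 to 7.87 with a median of 6.47 in vehicle tumours. Vehicle tumours 1 and 7, at 7.87 and 7.40, lay within the treated range, vehicle tumour 6 at 7.38 lay at its lower edge, and the other 4 vehicle tumours, at 6.47 and below, lay under all of them. The difference was 0.95 ± 0.33 (SE), 1.93-fold (limma unadjusted p = 0.0142, adjusted p = 0.117; exact two-sided permutation p = 0.0303). Endothelial cells express FcRn, and the endothelial marker mean was 4.41 to 5.53 in vehicle and 5.08 to 6.0 in treated tumours; hepatocytes do too, and the mean of 5 measured hepatocyte markers was 0.58 to 5.77 and 1.81 to 11.57, with 11.57 in treated tumour 3. Their part in Fcgrt was not tested.

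**Figure D3:**
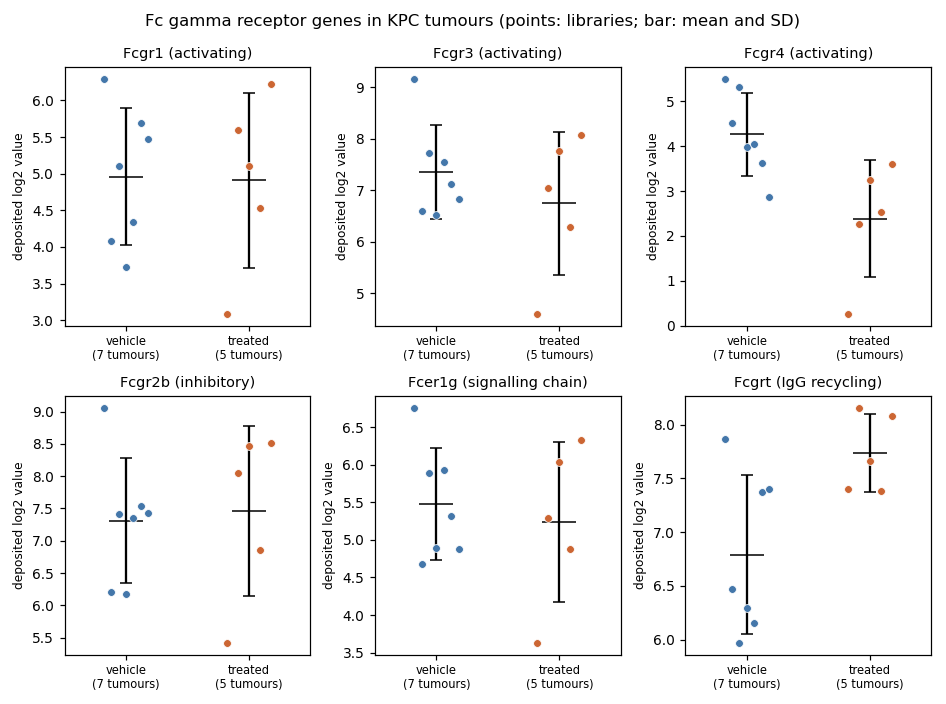
Deposited log2 value of the 6 genes (vertical axis of each panel, own scale) in 7 vehicle and 5 treated tumours; points are libraries, the bar is the mean and its whiskers 1 SD. The treated points of Fcgr4 lie between 0.26 and 3.61 and the vehicle points between 2.87 and 5.49, and the treated points of Fcgrt start at 7.38.

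The level of each activating receptor relative to Fcgr2b was then taken within each library, as a difference of deposited log2 values; it is given with no test, because the genes were chosen together, and its absolute size depends on how well the values are scaled to gene length. In tumours Fcgr4 minus Fcgr2b was -3.04 ± 1.07 (SD, n = 7) with vehicle and -5.08 ± 0.53 (SD, n = 5) with treatment, with ranges of -4.56 to -1.70 and -5.79 to -4.32. Fcgr3 minus Fcgr2b was 0.05 ± 0.40 with vehicle and -0.71 ± 0.22 with treatment, with ranges of -0.60 to 0.40 and -1.0 to -0.43. Fcgr1 minus Fcgr2b was -2.35 ± 0.42 and -2.56 ± 0.46. Fcgr4 and Fcgr3 thus stood lower against Fcgr2b in most treated tumours, with some overlap, and Fcgr1 overlapped broadly. The mean of the 3 activating receptors minus Fcgr2b was -1.78 ± 0.46 (-2.38 to -1.14) with vehicle and -2.78 ± 0.31 (-3.10 to -2.40) with treatment.

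In sorted cells the same mean difference was -1.07 ± 1.80 (SD, n = 3) in vehicle PMN and -1.88 ± 0.63 (SD, n = 4) in treated PMN, and -2.30 ± 0.51 and -3.18 ± 0.81 in vehicle and treated monocytes. Treated and vehicle ranges overlapped in both cell types. The treated minus vehicle difference of this balance was -1.0 in tumours, -0.81 in PMN and -0.87 in monocytes. When each library was left out in turn it stayed between -1.10 and -0.89 in tumours. It stayed between -1.85 and -0.28 in PMN and between -1.19 and -0.53 in monocytes. Different members made up these like values, and none of them was called. In tumours Fcgr2b differed by 0.15, and Fcgr1, Fcgr3 and Fcgr4 by -0.05, -0.6 and -1.89. In PMN these were 0.42, and -0.35, 0.02 and -0.84. In monocytes they were 0.86, and 0.27, 0.15 and -0.45. In PMN, vehicle library 2 alone had a balance of -3.15, below all treated PMN, and the other vehicle libraries had -0.06 and -0.01, above them.

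**Figure D4:**
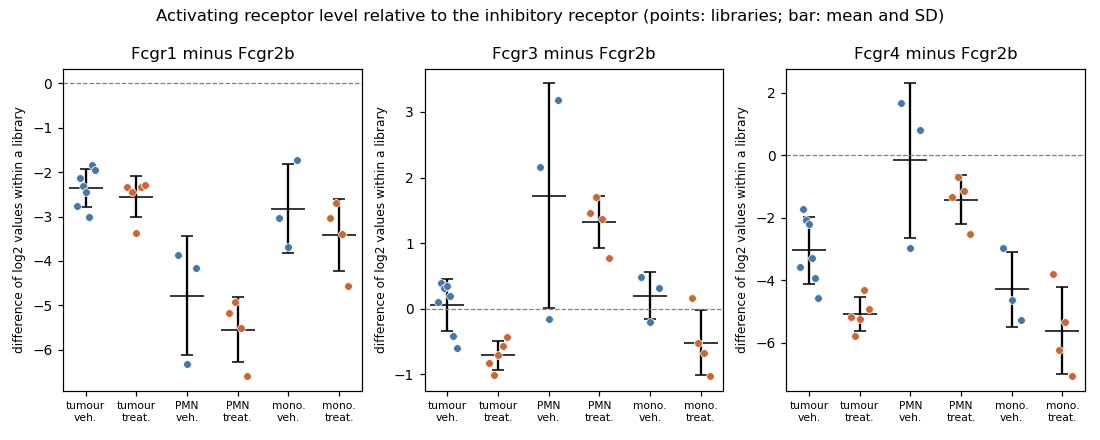
Activating receptor minus Fcgr2b within each library (vertical axis, difference of deposited log2 values) for Fcgr1, Fcgr3 and Fcgr4 in the 6 groups; points are libraries, the bar is the mean and its whiskers 1 SD. In tumours Fcgr4 minus Fcgr2b has a mean of -3.04 with vehicle and -5.08 with treatment, and the PMN vehicle points are the most spread.

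Across the 12 tumours the members were related to each other to very different degrees. Fcgr3 and Fcer1g, receptor and chain, had the closest pattern (Pearson r = 0.98, Spearman rho = 0.94, and r = 0.96 without the 2 tumours farthest from the median of Fcgr3). Fcgr1 and Fcgr2b had r = 0.92 (rho = 0.92, and r = 0.83 without 2). Fcgr2b and Fcgr3, which share a run of 129 bases, had r = 0.89 (rho = 0.87, and r = 0.78 without 2). With the macrophage marker mean, r was 0.93 for Fcgr2b, 0.91 for Fcgr1, 0.81 for Fcgr3, 0.77 for Fcer1g and 0.65 for Fcgrt. For Fcgr4 it was 0.40. Without the 2 tumours farthest from the median of the gene, r was 0.88 for Fcgr2b and for Fcgr1 and 0.55 for Fcgr3. It was then 0.5 for Fcer1g, 0.71 for Fcgrt and -0.42 for Fcgr4. After the mean of each treatment group was subtracted, Fcgr4 had r = 0.63 with the macrophage mean (0.59 without 2), 0.85 with Fcgr3 and 0.84 with Fcer1g. The other members then ran from 0.77 (Fcgrt) to 0.93 (Fcgr2b) with the macrophage mean, and Fcer1g had 0.8 (0.57 without 2). The cause of the low value of Fcgr4 over all tumours was not tested. Fcgrt was the member least like the pair of Fcgr3 and Fcer1g, with r = 0.15 and 0.16. After group means were subtracted these were 0.44 and 0.33. All of these are descriptions over tumours that share a library for both measures, and the cell makeup of a tumour enters both.

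Set against macrophage markers of the same tumour, Fcgr4 separated the groups only in part. Fcgr4 minus the macrophage marker mean was -2.51 ± 0.93 (SD, n = 7; -3.98 to -1.41) with vehicle and -4.54 ± 0.73 (SD, n = 5; -5.42 to -3.91) with treatment. Vehicle tumour 7 gave the lowest vehicle value, -3.98, inside the treated range. For Fcgr2b the same quantity was 0.54 ± 0.44 and 0.54 ± 0.52, and for Fcgr1 -1.82 ± 0.43 and -2.02 ± 0.47. For Fcgr3 it was 0.59 ± 0.52 and -0.17 ± 0.64, and for Fcgrt 0.02 ± 0.50 and 0.81 ± 0.57. Neutrophil markers mark cells that held more Fcgr4 than monocytes in the spleen. Their mean was 2.64 to 7.09 in vehicle and 2.35 to 4.65 in treated tumours. Fcgr4 was only weakly related to that mean (r = 0.25, rho = 0.24, and r = 0.18 without 2 tumours). After group means were subtracted it had r = 0.03 (rho = -0.12, and r = -0.43 without 2). The part of neutrophils was not tested.

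**Figure D5:**
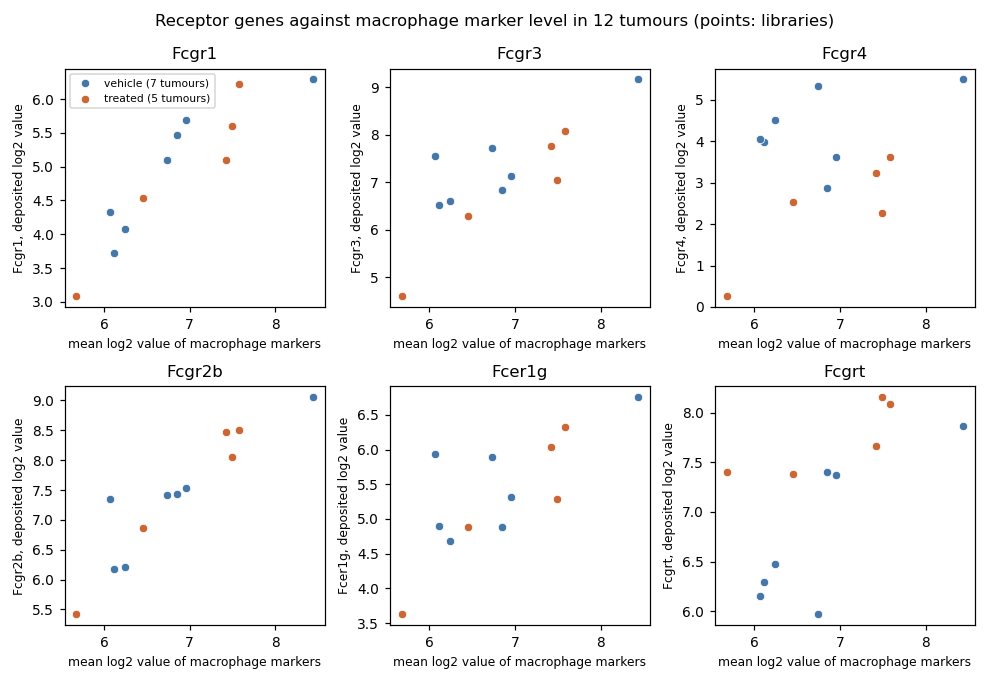
Deposited log2 value of each gene (vertical axis) against the mean deposited log2 value of 11 macrophage markers (horizontal axis) in 12 tumours; points are libraries, coloured by treatment. Fcgr1 and Fcgr2b follow the macrophage mean in both groups (r = 0.91 and 0.93), and the treated points of Fcgr4 lie mostly below vehicle points of like macrophage mean.

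The genes with the most similar pattern were found by Pearson correlation among all tested genes with a mean of at least 1. Over 12 tumours Fcgr1 was closest to Spi1, which encodes PU.1 (r = 0.963), and Tifab (0.963), and Fcgr2b to Nfam1 (0.962) and Ccl9 (0.957). Fcgr3 was closest to Slc45a4 (0.979) and Ms4a6d (0.965), and Fcer1g to Slc45a4 (0.957) and Klf10 (0.953). Fcgr4 was closest to Ncbp1 and Hs2st1 (0.961 each), and Fcgrt to Fbln5 (0.957) and Arhgap28 (0.945). Over 14 sorted libraries, after subtraction of group means, the closest were Api5 and Rab18 to Fcgr1 (0.907 and 0.896), Ocstamp and Glrx5 to Fcgr2b (0.953 and 0.94), Aco1 and Pepd to Fcgr3 (0.947 and 0.945), Mss51 and Zbtb7b to Fcgr4 (0.915 and 0.907), Dcaf11 and Wdr37 to Fcer1g (0.877 and 0.862), and Ppm1d and Mat2a to Fcgrt (0.926 and 0.9). No gene was closest to the same member in both sets. Each of these values is the highest of many correlations over few libraries, so its size shows no link between the genes. No test was made of them, also not for Spi1 and Fcgr1.

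The genes around the receptors were taken from 6 lists; the counts below stand beside 32.8% of all genes higher and 27.2% lower in vehicle monocytes, and 37.6% and 32.1% in treated ones. In monocytes against PMN of vehicle mice, all 4 measured receptors that also pair with the Fcer1g chain were lower: the C-type lectins Clec4d (-5.22 ± 0.39, SE), Clec4n (-3.34 ± 0.71) and Clec4e (-2.64 ± 0.34), which bind microbial glycolipids and sugars, and Pira2 (-0.80 ± 0.16). Their median was -2.99, against 0.07 over all genes, although Fcer1g itself was not called. The same 4 were lower in treated mice, with a median of -2.45. Of the 20 measured genes of activating receptor signalling, 9 were lower in vehicle monocytes and 1 higher (median -0.41), with the adaptor Gab2 (-1.28 ± 0.23), the Src-family kinase Fgr (-1.25 ± 0.20), Syk (-1.07 ± 0.12) and the PI3K regulatory subunit Pik3r1 (-1.01 ± 0.13) changed most. In treated mice 11 were lower and 3 higher.

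Inhibitory receptors and phosphatases went both ways: 4 of 17 were higher and 6 lower in vehicle monocytes (median -0.28), and 5 and 6 in treated ones, shares near those of all genes. The largest were Siglece (-2.11 ± 0.36), Pilra (-1.86 ± 0.30), Pirb (-0.94 ± 0.17) and the phosphatase SHP-1, Ptpn6 (-0.72 ± 0.12). Of the 8 other Fc receptors tested, 5 were lower in vehicle monocytes, led by Fcrl5 (-3.61 ± 1.20), Fcrl1 (-2.75 ± 0.16), Fcrla (-2.01 ± 0.38) and the IgM receptor Fcmr (-1.98 ± 0.42), genes known from B cells; all 8 B cell markers were also lower there, and their part was not tested. Of the antibody chain genes and FcRn ligands 1 of 9 was lower, Jchain (-1.40 ± 0.56). Of 11 genes of the interferon-gamma axis, which induces Fcgr1 in macrophages, 1 was higher, Irf8 (1.64 ± 0.36), and 4 were lower, among them Gbp2 (-2.33 ± 0.54), Irf1 (-1.27 ± 0.30) and Jak2 (-1.14 ± 0.22); the share lower is near that of all genes. All differences in this and the preceding paragraph that are called passed limma's adjusted p of 0.05.

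With treatment, limma called none of the genes of the 6 lists in tumours, PMN or monocytes (0 in each list). In tumours all 10 antibody chain genes and FcRn ligands lay above 0, with a median of 2.42 against -0.06 over all genes, and those of smallest p were the IgM heavy chain Ighm (4.06 ± 1.30, SE; adjusted p = 0.0947) and B2m, the partner of Fcgrt (1.32 ± 0.50; adjusted p = 0.133). The B cell marker mean was -0.56 to 4.89 in vehicle and -0.04 to 6.04 in treated tumours, and its part was not tested. Of the interferon-gamma axis 10 of 11 lay above 0 (median 0.76), with Ciita, the activator of MHC class II genes, at 1.78 ± 0.60 (adjusted p = 0.105). Across tumours Fcgr4 went against the mean of that list (r = -0.71, rho = -0.75, and -0.68 without 2 tumours). It did so less once group means were subtracted (r = -0.43, rho = -0.35, and -0.11 without 2). Over the 14 sorted libraries, after subtraction of group means, Fcgr4 went against that mean with r = -0.75 (rho = -0.81, and -0.72 without 2). Across tumours, with no subtraction, Fcgr1 had r = 0.02. Of the 4 Fcer1g partners 3 lay below 0 (median -1.07), as Clec4d did at -2.06 ± 0.74 (adjusted p = 0.121) and Clec4e at -1.75 ± 0.65 (adjusted p = 0.132); all 8 measured neutrophil markers also lay below 0 (median -1.05), and their part was not tested. Of activating signalling genes 16 of 20 lay above 0 (median 0.39), with Syk at 0.68 ± 0.21 (adjusted p = 0.0908) and Pik3r1 at 0.56 ± 0.24 (adjusted p = 0.176). Of the inhibitory list 12 of 17 lay above 0 (median 0.17), although Pilra stood at -0.99 ± 0.36 and Ptpn11 at -0.43 ± 0.16. Of the other Fc receptors 8 of 9 lay above 0 (median 0.72), with Trim21 at 0.56 ± 0.24, and Fcrlb stood at -2.10 ± 0.69.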

How the data were processed

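Per the labels, RNA of RNAlater-stored tumours was sequenced after ribosomal RNA removal with a stranded kit (1 lane, 100 bp pairs), and that of sorted cells with a TruSeq or a NuGEN kit (4 lanes). Per the submitters' processing notes, TopHat2, STAR, limma and mm10 were used, with no versions or roles. The files hold log2 values that the authors deposited as log2 RPKM. Their linear sums were 1552393 to 1552449 per tumour library and 1429080 to 1430326 per sorted library, so depth is unknown, and mean values were only weakly related to exon length across genes (Spearman rho = 0.142 and 0.123).

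Genes that reached a value of 0 in 5 or more tumour (16296) or 3 or more sorted libraries (13968) entered limma 3.58.1 (lmFit, then eBayes with trend; two-sided) in R 4.3.3, tumours in 1 fit and the 4 sorted groups in another, with Benjamini-Hochberg adjustment over all genes of a comparison. Exact permutation tests used scipy 1.17.1. The fits were tested on simulated data. Symbols came from GENCODE M21. Members, lists and tests were chosen with earlier results of these data known, and the promoter motifs after the promoter letters were seen. All members are named; of each list up to 4 called genes of largest difference, or the 2 of smallest p, and for each member the 2 genes of closest pattern; 1 list gene is not reported here. Alternatives were other filters, scalings and variance settings, array weights, a replicate block, and each library left out. PMN and monocyte libraries of the same number deviated together in vehicle mice (correlations 0.105 to 0.462 in 3 pairs) but not throughout in treated mice (-0.215 to 0.447), nor did treated and vehicle tumours (-0.177 to 0.265).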

Additional observations from a re-analysis of the deposited data

How the results depend on the processing

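Depth per library is unknown and limits every value. Of the member differences, none of those past the threshold lost it under any alternative run, and no member was called for treatment in any cell type or in tumours. Over 21 alternatives Fcgr4 in tumours stayed between -2.29 and -1.10 (limma adjusted p 0.0673 to 0.18) and Fcgrt between 0.81 and 1.19 (0.0513 to 0.225). The number of genes called in tumours, 359, was 2764 with array quality weights (1081 higher, 1683 lower; the weights did not fully converge), 166 with the replicate block (138 higher, 28 lower), and 0 to 1693 when single libraries were left out (0 without treated tumour 4, 1693 without vehicle tumour 5); the cause was not tested. The replicate block changed no member's call, with 8336 and 9693 genes called between cell types in vehicle and treated mice. It turned the sign of 3 uncalled values: Fcgr1 in tumours (0.20), Fcgr3 in PMN (-0.0033) and Fcgrt in monocytes (-0.21). Array weights turned Fcgr1 (0.32), Fcer1g (0.33) and Fcgr3 (0.06) in tumours, none called. Array weights also brought Fcer1g between cell types of vehicle mice past the threshold (-0.64, adjusted p = 0.0448), and a fit of only the 2 treated groups did so for Fcgr2b (0.81, adjusted p = 0.0308).

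With single libraries left out, some uncalled values changed sign. In tumours Fcgr1 ran from -0.38 to 0.41, Fcgr2b from -0.11 to 0.66 and Fcer1g from -0.52 to 0.16. In treated against vehicle PMN, Fcgr2b ran from -0.36 to 1.49 and Fcgr3 from -0.06 to 0.15. In treated against vehicle monocytes, Fcgr1 ran from -0.06 to 0.86, Fcer1g from -0.16 to 0.19 and Fcgrt from -0.23 to 0.40. Between cell types of vehicle mice, Fcgr2b ran from -0.41 to 1.43 and Fcgrt from -0.03 to 1.14. The difference of treatment effects ran from -0.63 to 1.22 for Fcgr2b, from -0.07 to 0.28 for Fcer1g and from -0.23 to 0.84 for Fcgr4.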
